A study of Mus musculus with 9 samples.

Results

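The mRNAs of 9 genes that regulate the transcription factor Nrf2 were followed in mouse RAW264.7 macrophages. They are Keap1, Nfe2l2 (which encodes Nrf2), Nfe2l1 (Nrf1), Bach1, the small Maf genes Maff, Mafg and Mafk, Cul3 and Sqstm1 (p62), picked by gene name from a table of 54532 genes. RAW264.7 is a transformed macrophage line, and the labels describe it as wild type, of ascites origin. Control cells were untreated, LPS cells had lipopolysaccharide (LPS, 1 μg/ml) for 6 h, and LPS+G-CDs cells had the same LPS dose plus 400 μg/ml of G-CDs over the same 6 h. G-CDs are carbon dots made from Glycyrrhiza, the licorice plant, and no group received G-CDs without LPS. Each group had 3 libraries. The titles name G-CDs in the last group, while its treatment field gives LPS alone. Whether the 3 libraries of a group came from separate cultures is not stated, so p-values measure only the spread between these libraries.

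Nrf2 is a leucine zipper factor that turns on antioxidant, glutathione and iron-handling genes. In resting cells Keap1 holds it and presents it to the Cul3 ubiquitin ligase, and the proteasome degrades it. Electrophiles and oxidants modify cysteines of Keap1, and p62 can bind Keap1 and carry it to autophagosomes, so both routes free Nrf2. In the nucleus Nrf2 and its relative Nrf1 pair with a small Maf protein to bind antioxidant response elements (AREs), and Bach1, a repressor released by heme, competes for the same partners and sites. Much of this control acts on proteins, which mRNA levels do not show.

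The libraries held 14752400 to 17312255 reads on genes. Values are given as FPKM, read counts scaled to gene length and library size, which allows levels to be compared between genes. All 9 genes reached an FPKM of 1 in all 9 libraries, with 72 to 29698 reads behind a value. Each change below is a difference in log2(FPKM + 1), fitted by limma to the 11585 genes that passed the filter on low values, and a gene was called at a Benjamini-Hochberg adjusted p under 0.05 over all of them. Adding 1 to the FPKM understates the change of low genes such as Maff and Bach1. The 9 macrophage markers were detected in every library, with sums of 2660 to 5340 FPKM, while 9 markers of other cell types summed to 0.586 to 1.14 FPKM, with 2 of them at 0 throughout and none above 0.861 in any library. All 5 LPS response genes examined (Tnf, Il1b, Nos2, Ptgs2 and Cxcl2) rose with LPS. The deposited values carry a scaling between groups: under TPM scaling the median log2 change of all genes was -0.23 (LPS against control), -0.14 (LPS+G-CDs against LPS) and -0.38 (LPS+G-CDs against control), against 0.016, 0.017 and 0.025 as deposited. In the control and LPS+G-CDs groups, long genes were relatively lower in replicate 3 (median log2 deviation of the 1159 longest tested genes -0.27 and -0.31).

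LPS changed 5 of these genes, and Sqstm1 alone among the 9 passed the test for the addition of G-CDs. With LPS, Maff, Sqstm1, Mafk and Nfe2l1 rose and Keap1 fell. These are 5 of the 9 genes, or 55.6%, beside a background of 31.3% of all genes called in that comparison, and 4 of 9 called higher beside 15.8%. With G-CDs added to LPS, 1 of 9 was called (11.1%), beside 0.492% of all genes. Against the untreated cells, LPS+G-CDs raised Maff, Sqstm1 and Mafk, 3 of 9 (33.3%), beside 25.3% of all genes. The median log2 change of the 9 genes was 0.34, -0.071 and 0.41 in these 3 comparisons, and that of all genes was 0.016, 0.017 and 0.025. The groups did not overlap for 6, 3 and 6 of the 9 genes, beside 52.5%, 27.9% and 34.3% of all genes. The comparisons share libraries, so they are set side by side and not correlated. At the study's own limits of p under 0.01 and more than 1.5-fold, the counts were 4, 1 and 3 of 9, beside 23.1%, 2.49% and 18.9% of all genes.

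**Figure D1:**
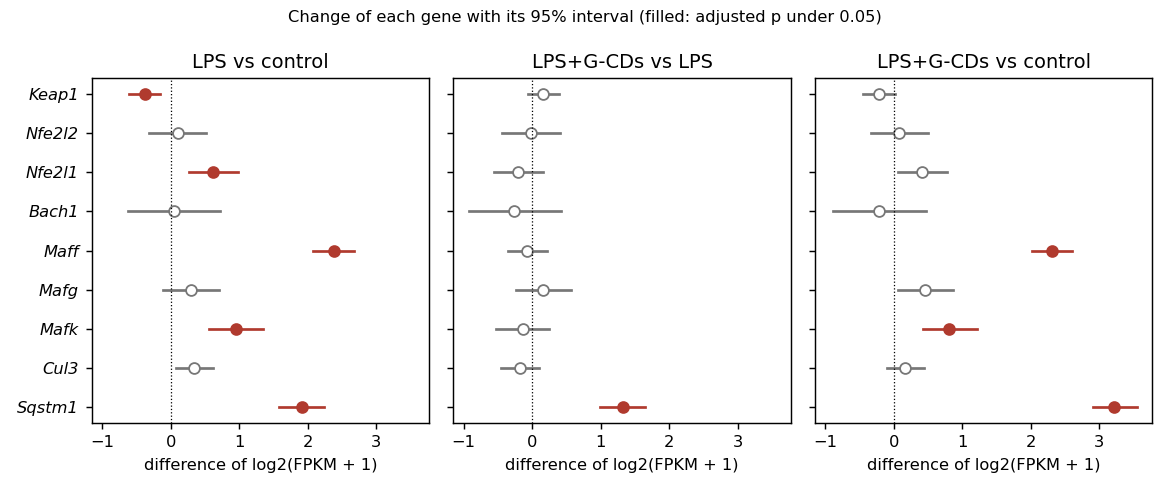
Log2 change of each of the 9 genes in the 3 comparisons (log2(FPKM + 1), limma, bars: 95% confidence interval, filled points: adjusted p under 0.05). Maff and Sqstm1 lie far to the right under LPS (2.38 and 1.91), and only Sqstm1 (1.32) has a filled point for LPS+G-CDs against LPS.

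Sqstm1 (ENSMUSG00000015837, GRCm38 chromosome 11, 50199366 to 50210827, minus strand) encodes p62, an autophagy receptor that links ubiquitinated cargo to LC3-family proteins and sequesters Keap1. It read 58.4, 48.4 and 58.8 FPKM in the control libraries, 212, 199 and 216 with LPS, and 464, 533 and 575 with LPS+G-CDs. The 3 groups did not overlap at any step, and Sqstm1 was the most abundant of the 9 mRNAs in each group. LPS raised it 3.79-fold (log2 1.91 ± 0.14 SE, adjusted p = 1.5e-05). G-CDs raised it a further 2.51-fold over LPS alone (log2 1.32, 95% interval 0.99 to 1.64, adjusted p = 0.0068), the rank of 29 among 11585 genes by rise. Together the treatments gave 9.5 times the control level (log2 3.22 ± 0.14, adjusted p = 5.8e-07, rank 93).

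The size of the G-CDs step held when single libraries were left out, at log2 1.28 to 1.33 in the fits named next, but the call did not. Its adjusted p was 0.0678 without LPS replicate 1, 0.0742 without LPS replicate 2 and 0.0665 without LPS+G-CDs replicate 2. Under TPM the G-CDs step read 1.15 (adjusted p = 0.00436) and under quantile scaling 1.05 (adjusted p = 0.0174). With median-of-ratios scaling and voom it read 1.31 and 1.33. The LPS step of Sqstm1 read 1.65 under TPM and 1.76 under quantile scaling. The last 750 bases of Sqstm1 overlap Mrnip on the opposite strand, and 20.4% of the 50-base words of its longest transcript also occur in Mrnip transcripts. Mrnip read 0.169 to 2.12 FPKM over the 9 libraries, far below Sqstm1.

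**Figure D2:**
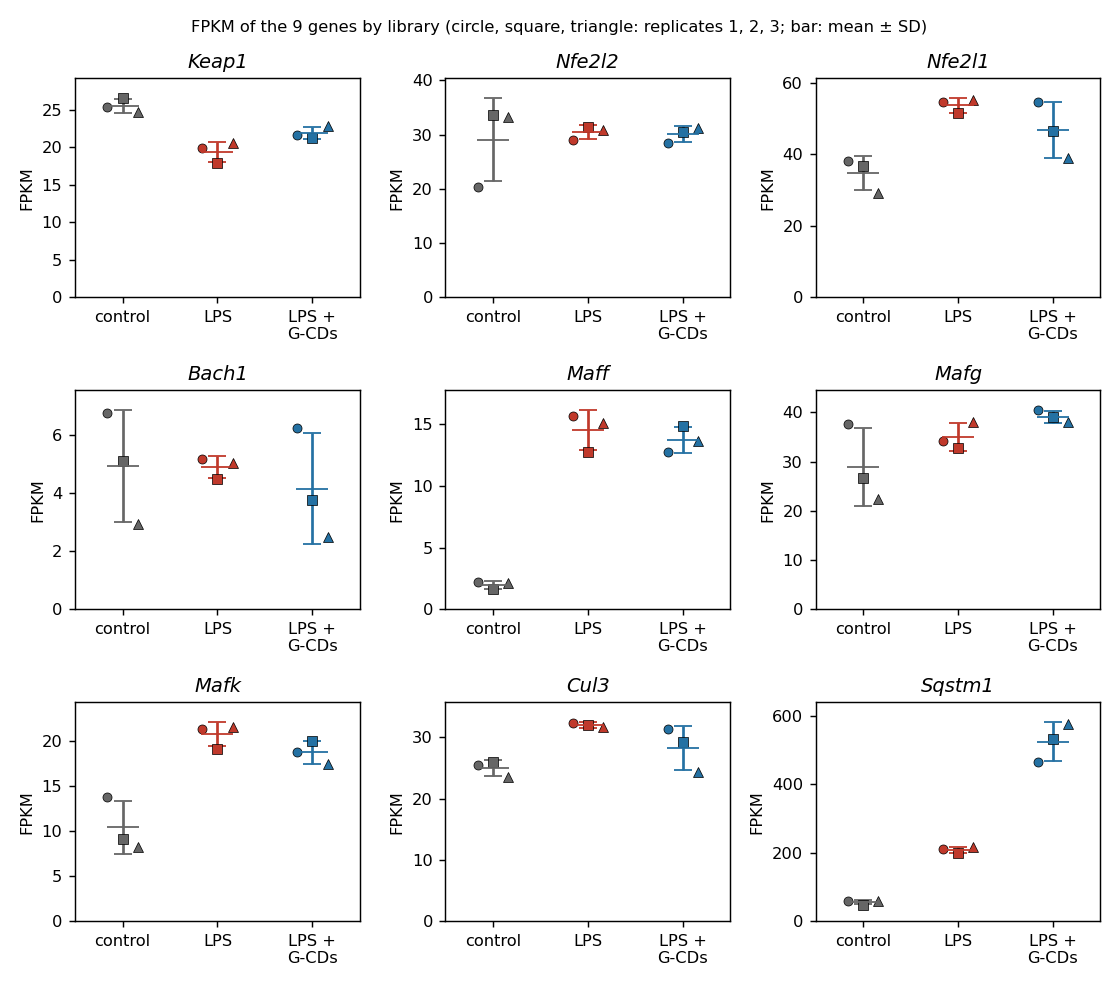
FPKM of each of the 9 genes in each library (points: the 3 libraries of a group, bar: mean ± SD, axes from 0 and different for each gene). Sqstm1 is higher at each step without overlap (highest control 58.8, LPS 199 to 216, LPS+G-CDs 464 to 575), Maff and Mafk are higher in both treated groups, and Bach1 and Nfe2l2 overlap across groups.

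Keap1 and Cul3 form the ligase that marks Nrf2 for degradation. Keap1, the substrate adaptor and electrophile sensor (ENSMUSG00000003308, chromosome 9, 21229730 to 21239361, minus strand), read 25.4, 26.5 and 24.7 FPKM in control, 19.9, 17.9 and 20.5 with LPS, and 21.6, 21.2 and 22.8 with LPS+G-CDs. It fell with LPS to 0.762 of control (log2 -0.38 ± 0.1 SE, adjusted p = 0.022), and every LPS library lay below every control library. On the deposited scale the LPS+G-CDs libraries sat between the other groups and overlapped neither, but under TPM the difference from LPS was 0.0019. Neither of these differences passed the test: 1.12 times LPS (log2 0.16, 95% interval -0.068 to 0.39, adjusted p = 0.38) and -0.21 against control (adjusted p = 0.17). The fall with LPS read -0.66 under both TPM (adjusted p = 0.00789) and voom (adjusted p = 0.0019). It lost its call without control replicate 2 (-0.35, adjusted p = 0.0636) and without LPS replicate 1 (-0.39, 0.0687), replicate 2 (-0.32, 0.102) or replicate 3 (-0.41, 0.0547). LPS+G-CDs against control was called lower after other scalings (TPM -0.65, adjusted p = 0.00885, voom -0.48, adjusted p = 0.0124, quantile -0.37, adjusted p = 0.0309). Relative to the median of all genes, it was -0.24 as deposited, -0.28 under TPM, -0.26 with voom and -0.33 under quantile scaling. Measured that way, the fall with LPS was -0.39 as deposited and -0.42 under both TPM and voom. The difference of LPS+G-CDs from LPS was then 0.15 as deposited and 0.14 under TPM.

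Keap1 shares 3317 bases with Gm16754, an antisense gene, and 10.4% of its 50-base words are also in Gm16754 transcripts. Without a stated strand in the counting, reads of the pair cannot be told apart there. Gm16754 read 3.31, 3.28 and 4.47 FPKM in control, 3.02, 3.19 and 3 with LPS, and 2.46, 2.47 and 2.29 with LPS+G-CDs, so it stood lowest in the group in which Keap1 was intermediate.

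Cul3, the scaffold of the ligase (ENSMUSG00000004364, chromosome 1, 80264923 to 80340480, minus strand), read 25.4, 26 and 23.6 FPKM in control and 32.4, 32 and 31.6 with LPS. With LPS+G-CDs it read 31.4, 29.2 and 24.4. The LPS libraries were tightly grouped (replicate CV 1.35%, against 2.14% from counting alone) and lay above both other groups without overlap. The difference from control was 1.28-fold (log2 0.34 ± 0.12) and missed the threshold at an adjusted p of 0.056. With the replicate block it was called (adjusted p = 0.0495), as it was under median-of-ratios scaling (0.36, adjusted p = 0.049), in the 6 libraries alone (adjusted p = 0.033), without LPS+G-CDs replicate 1 (0.0399) or 3 (0.0223) and with the length trend removed (0.0421). It was much smaller under TPM (0.086, adjusted p = 0.791), voom (0.091, adjusted p = 0.68) and quantile scaling (0.2, adjusted p = 0.348). Against LPS, the LPS+G-CDs change was -0.18 (95% interval -0.45 to 0.094, adjusted p = 0.4). The adaptor was thus called lower with LPS, and the scaffold read higher in every LPS library on the deposited scale without passing the test.

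Nfe2l2, the gene for Nrf2 itself (ENSMUSG00000015839, chromosome 2, 75675513 to 75704641, minus strand), read 20.3, 33.7 and 33.2 FPKM in control, 29.1, 31.5 and 30.9 with LPS, and 28.4, 30.5 and 31.3 with LPS+G-CDs. The treated groups were nearly level (30.5 ± 1.24 and 30.1 ± 1.51, SD, n = 3), and the spread of the control group came from replicate 1. Its change was 0.1 with LPS (95% interval -0.32 to 0.52, adjusted p = 0.72) and -0.02 with G-CDs added (-0.44 to 0.4, adjusted p = 0.96). The sign was not fixed: under TPM scaling the LPS change read -0.16, and without control replicate 1 it read -0.13. Changes anywhere within these intervals remain compatible with the values. The replicate spread in control (CV 26.1%) was far above the 2.26% that counting gives.

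Nfe2l1 encodes Nrf1, an endoplasmic reticulum bound relative of Nrf2 that is best known for raising proteasome genes when proteasome capacity falls (ENSMUSG00000038615, chromosome 11, 96817414 to 96829968, minus strand). It read 38.1, 36.8 and 29.2 FPKM in control, 54.5, 51.4 and 55 with LPS, and 54.6, 46.6 and 38.9 with LPS+G-CDs. LPS raised it 1.55-fold (log2 0.62 ± 0.16, adjusted p = 0.015), and every LPS library lay above every control library. The LPS+G-CDs libraries ranged from the LPS level down to just above the highest control, at -0.21 against LPS (95% interval -0.56 to 0.15, adjusted p = 0.44) and 0.41 against control (adjusted p = 0.087). The latter was called without LPS+G-CDs replicate 3 (0.54, adjusted p = 0.0317) and with the length trend removed (0.42, adjusted p = 0.0256), and read -0.015 under TPM. The rise with LPS was not called under TPM (0.36, adjusted p = 0.297), quantile (0.46, 0.121) or voom (0.37, 0.136) scaling, nor without LPS replicate 1 (0.61, 0.0582) or replicate 3 (0.6, 0.059). Relative to the median of all genes it was 0.6, 0.52 and 0.61 under these scalings.

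Bach1 (ENSMUSG00000025612, chromosome 16, 87698945 to 87733346, plus strand) varied most of the 9 genes between replicates in control and in LPS+G-CDs, though not in LPS. It read 6.76, 5.09 and 2.93 FPKM in control, 5.16, 4.48 and 5.03 with LPS, and 6.22, 3.75 and 2.48 with LPS+G-CDs. The groups overlapped, at mean levels of 4.92, 4.89 and 4.15 FPKM. The changes were 0.045 with LPS (95% interval -0.63 to 0.72, adjusted p = 0.92), -0.26 with G-CDs added (-0.93 to 0.42, adjusted p = 0.61) and -0.21 against control (adjusted p = 0.65). Changes anywhere within these wide intervals remain compatible with the values. The replicate CV was 39% in control and 45.9% in LPS+G-CDs but 7.44% in LPS, where counting alone gives 4.28%, 5.09% and 4.85%. Replicate 3 was lowest in both variable groups, the libraries in which long genes read low, and Bach1 is 6179 bases long. Removing the length trend took its log2 SD from 0.5 to 0.42 in control and from 0.53 to 0.42 in LPS+G-CDs. Replicate 3 was also lowest in both groups for Mafg (5613 bases), Nfe2l1 (5441), Cul3 (4873) and Mafk (3901). Keap1 (4693 bases) had it lowest in control but highest in LPS+G-CDs, and for Nfe2l2, Maff and Sqstm1 it was lowest in neither. In LPS+G-CDs the replicate CV was 16.8% for Nfe2l1 and 3.08% for Mafg. The part of length in the Bach1 values was not tested.

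The small Mafs are short leucine zipper proteins without an activation domain that serve Nrf2, Nrf1 and Bach1 as obligate partners. Maff (ENSMUSG00000042622, chromosome 15, 79346621 to 79359076, plus strand) was the strongest LPS responder among the 9 genes. It read 2.22, 1.63 and 2.1 FPKM in control, 15.6, 12.7 and 15.1 with LPS, and 12.7, 14.8 and 13.6 with LPS+G-CDs. LPS raised it 7.31-fold in mean FPKM (log2 2.38 ± 0.13, adjusted p = 2e-06, rank 230 of 11585). The LPS+G-CDs libraries lay within the LPS range (log2 -0.071, 95% interval -0.36 to 0.22, adjusted p = 0.75) and 6.92-fold above control (adjusted p = 2.8e-06).

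Mafk (ENSMUSG00000018143, chromosome 5, 139791513 to 139802653, plus strand) moved in the same direction at a smaller size. It read 13.8, 9.15 and 8.28 FPKM in control, 21.3, 19.1 and 21.5 with LPS, and 18.7, 20 and 17.4 with LPS+G-CDs. LPS raised it 1.98-fold (log2 0.95 ± 0.17, adjusted p = 0.0031) and LPS+G-CDs 1.79-fold over control (log2 0.81, adjusted p = 0.0084), the latter not called under TPM scaling (0.43, adjusted p = 0.191). Between the treated groups it differed by -0.14 (95% interval -0.53 to 0.25, adjusted p = 0.63).

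Mafg (ENSMUSG00000051510, chromosome 11, 120625117 to 120633600, minus strand) was the most abundant small Maf in every library. It read 37.7, 26.6 and 22.4 FPKM in control, 34.2, 32.7 and 38.1 with LPS, and 40.4, 39.1 and 38 with LPS+G-CDs. No change passed the test: 0.3 with LPS (95% interval -0.11 to 0.7, adjusted p = 0.24), 0.16 with G-CDs added (adjusted p = 0.59) and 0.46 for LPS+G-CDs against control (adjusted p = 0.095). Under TPM the changes against control were 0.036 (adjusted p = 0.929) and 0.032 (0.926), and with voom 0.04 and 0.21. Without control replicate 1 Mafg was called higher with LPS (0.5, adjusted p = 0.0181) and with LPS+G-CDs (0.66, adjusted p = 0.00661), while the change with G-CDs added stayed uncalled (0.16, adjusted p = 0.364). With all libraries but the gene-length trend removed, LPS+G-CDs against control was called too (0.47, adjusted p = 0.048). The end of Mafg shares 124 bases with Sirt7 on the same strand, 1.5% of its 50-base words, and Sirt7 read 8.42 to 10.7 FPKM in control and 4.35 to 6.5 in the treated groups.

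The sum of the 3 small Maf mRNAs was 53.7, 37.4 and 32.8 FPKM in control, 71.1, 64.5 and 74.7 with LPS, and 71.7, 73.8 and 69 with LPS+G-CDs. Its makeup differed as well. Maff was 4.13%, 4.36% and 6.41% of the sum in control, 22%, 19.7% and 20.3% with LPS, and 17.7%, 20.1% and 19.8% with LPS+G-CDs. Mafg made up 69.9% ± 1.42 (SD, n = 3) in control, 49.9% ± 1.6 with LPS and 54.7% ± 1.71 with LPS+G-CDs, and Mafk made up 25.1% ± 0.609, 29.5% ± 0.595 and 26.1% ± 0.92. These shares are unaffected by the scaling between libraries, and control replicate 1, with the highest sum, had shares like those of the other controls. Among the shares, those of Mafg did not overlap between any pair of groups.

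**Figure D3:**
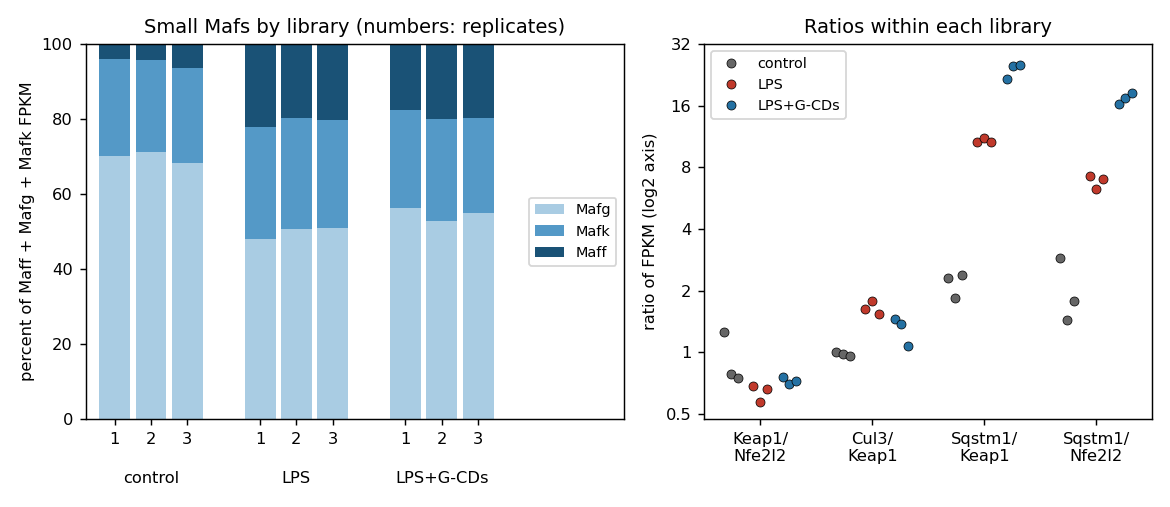
Left: share of each small Maf in the summed FPKM of Maff, Mafg and Mafk, per library (bars from 0 to 100%). Right: ratios of FPKM within each library on a log2 axis, with Sqstm1/Keap1 between 1.83 and 2.38 in control, 10.6 and 11.1 with LPS, and 21.5 and 25.3 with LPS+G-CDs.

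Ratios within a library compare a regulator with its partner free of the scaling between libraries. Sqstm1 mRNA exceeded Keap1 mRNA 2.17-fold in control (± 0.299, SD, n = 3), 10.8-fold with LPS (± 0.275) and 24-fold with LPS+G-CDs (± 2.13). Relative to Nfe2l2 it stood at 2.02 ± 0.752, 6.86 ± 0.498 and 17.4 ± 1.02. Cul3 and Keap1 were at parity in control (1, 0.981 and 0.956), and the ratio was 1.63, 1.78 and 1.54 with LPS and 1.45, 1.38 and 1.07 with LPS+G-CDs. None of these groups overlapped. Keap1/Nfe2l2 was 1.25, 0.785 and 0.744 in control, 0.683, 0.569 and 0.663 with LPS, and 0.76, 0.696 and 0.727 with LPS+G-CDs, so LPS lay below both other groups, which overlapped each other. Bach1/Nfe2l2 ranged from 0.0881 to 0.332 in control and overlapped in every comparison. In 24 two-sided exact permutation tests of these ratios and shares the smallest possible p with 3 against 3 is 0.1, reached by the 18 differences without overlap, and the smallest adjusted p was 0.133, so none could pass 0.05.

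The order of the levels changed with treatment. In control the order was Sqstm1, then Nfe2l1, Nfe2l2, Mafg, Keap1 and Cul3, whose ranges overlapped from each to the next (25 to 34.7 FPKM on average), then Mafk, Bach1 and Maff, each apart from its neighbors. With LPS it was Sqstm1, Nfe2l1, Mafg, Cul3, Nfe2l2, Mafk, Keap1, Maff and Bach1, in which only Mafk and Keap1 overlapped as neighbors. With LPS+G-CDs, Keap1 stood above Mafk (21.9 and 18.7 FPKM), and the overlapping neighbors were Nfe2l1 with Mafg and Nfe2l2 with Cul3. Maff was the lowest of the 9 in control and above Bach1 in both treated groups.

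The promoters of the small Mafs and of Nfe2l2 are shown because they hold the ARE core, and that of Sqstm1 because it is the gene that rose with G-CDs. RefSeq promoters (GRCm38.p6, from 250 bases before to 50 after a start site) were found for 9 of 9 genes, 15 in all. The core TGACNNNGC, searched on both strands, was in 4 of 15, belonging to Nfe2l2 (at -240 from the start site), Maff (-112), Mafg (-222) and Mafk (-13). It was in 12.4% of 32851 mouse promoters of this length. The sites are given on the strand of the gene, 5′ to 3′, with the core in capitals, read on the opposite strand in Mafg and Mafk.
Nfe2l2, chr2:75704885-75704913, minus strand: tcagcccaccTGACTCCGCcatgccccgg
Maff, chr15:79346499-79346527, plus strand: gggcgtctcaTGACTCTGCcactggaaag
Mafg, chr11:120633751-120633779, minus strand: ctctgcaggaGCACGGTCAacccggcgag
Mafk, chr5:139791513-139791541, plus strand: gatcccggaaGCGGTGTCAgtactgggga
The 250 bases before the start of Sqstm1 follow, with a match to the NF-κB consensus at -18 in capitals.
Sqstm1, chr11:50210821-50211070, minus strand: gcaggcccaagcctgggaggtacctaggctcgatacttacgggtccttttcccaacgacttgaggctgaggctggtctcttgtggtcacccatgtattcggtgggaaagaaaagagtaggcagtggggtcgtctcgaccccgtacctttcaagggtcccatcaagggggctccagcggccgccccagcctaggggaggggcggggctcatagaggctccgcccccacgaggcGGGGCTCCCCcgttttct

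The 4 genes with an ARE core in this window did not pass the test for G-CDs added to LPS, and Sqstm1, which did, had none in its window. The NF-κB consensus was in 2 of 15 promoters, of Sqstm1 and Maff (at -70), and in 8.46% of all. The E-box CACGTG was in 3 of 15 promoters, of Maff, Mafg and Mafk, beside 7.15% of all, and the AP-1 motif TGANTCA was in 0 of 15, beside 7.81%. The motifs do not overlap in these promoters, and the 3 matches of Maff lie in different RefSeq promoters of the gene. A match in so short a window describes letters and not binding. Sites outside the window were not searched, so a missing match says nothing of the gene's other bases. Whether a motif goes with the response to G-CDs was not tested.

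Other genes of the pathway were counted in lists grouped by role. Of the 11 listed leucine zipper relatives and partners, 5 were expressed enough to test, and 4 of these rose with LPS, beside 15.8% of all genes. The count was 3 with voom and without control replicate 2 or 3, any 1 of the LPS libraries or LPS+G-CDs replicate 2. Jdp2, an AP-1 family factor that can join Nrf2 on AREs, rose from 23 ± 3.15 to 92.8 ± 6.38 FPKM (log2 1.97, adjusted p = 7.7e-06), Atf4, the integrated stress response factor, rose by 1.26 (adjusted p = 0.001) and Jund, an AP-1 subunit, by 1.07 (adjusted p = 0.034). For LPS+G-CDs against control 4 were also called higher, beside 12.8% of all genes, and 0 of 5 were called when G-CDs were added to LPS, beside 0.492% (limma, 1 at an unadjusted p under 0.05, 0 with voom). Jdp2 read 130 ± 5.07 FPKM there (log2 0.48, adjusted p = 0.21).

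Of 21 tested genes that act in the turnover of Nrf2 and Bach1, 3 rose and 2 fell with LPS, 23.8% beside 31.3% of all genes. The lower calls did not hold: 3 higher and 0 lower were left without control replicate 1 or 3, any of the 3 LPS libraries or LPS+G-CDs replicate 2, and the balance was 1 higher and 5 lower under TPM and 2 and 4 with voom. Syvn1, an endoplasmic reticulum ubiquitin ligase also called Hrd1, rose by 0.88 (adjusted p = 0.00051), and Fbxw11, a β-TrCP ligase subunit, by 0.95 (adjusted p = 0.0049). Fbxo22, a ligase subunit for Bach1, fell by 0.54 with all libraries (adjusted p = 0.044). With G-CDs added, 0 of 21 were called, beside 0.492% of all genes (limma, 1 at an unadjusted p under 0.05, 0 with voom). The 4 genes of Nfe2l1 processing, among them Ngly1 and Ddi2, gave 0 calls in each comparison (limma), beside 31.3%, 0.492% and 25.3% of all genes. For LPS+G-CDs against control, 1 was called lower under TPM and without control replicate 3 or LPS+G-CDs replicate 1. In that comparison 1 was called higher without control replicate 1. With LPS, and with G-CDs added, 0 also passed an unadjusted p under 0.05 or voom, while against control LPS+G-CDs had 2 at that p and 1 with voom.

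Among 17 tested p62 partners, 4 rose and 2 fell with LPS, 35.3% beside 31.3% of all genes, with 2 higher and 3 lower under TPM and 1 and 3 with voom. Sesn2, a sestrin that binds p62 and promotes Keap1 degradation, rose from 8.06 ± 0.863 to 34.1 ± 0.292 FPKM (log2 1.96, adjusted p = 3.4e-06), whereas its relative Sesn1 went from 23.2 ± 3.48 to 4.32 ± 0.413 (-2.18, adjusted p = 4.5e-06). Tbk1, a kinase of p62, rose by 0.77 (adjusted p = 0.008), and Tfeb, a master regulator of lysosomal genes, went from 4.91 ± 0.754 to 0.342 ± 0.137 FPKM (-2.14, adjusted p = 2.5e-05). With G-CDs added 0 of 17 partners were called, beside 0.492% of all genes (limma, 4 at an unadjusted p under 0.05, 0 with voom). Gabarapl1, an autophagosome protein, read 18.5 ± 0.668 with LPS and 30.4 ± 5.19 FPKM with LPS+G-CDs (log2 0.67, adjusted p = 0.18) and was called higher against control (1.33, adjusted p = 0.00059). Among 17 cofactors and kinases of Nrf2, 3 rose and 4 fell with LPS, 41.2% beside 31.3% of all genes. Prkcd, a kinase of Nrf2, was at 0.93 (adjusted p = 0.00042) and Map3k5, a stress kinase, at -0.86 (adjusted p = 0.018). The count of 7 was 3 without LPS replicate 2 and 4 without LPS replicate 3, reached 10 without LPS+G-CDs replicate 3, and split as 1 higher and 6 lower under TPM and 1 and 5 with voom. With G-CDs added 0 of these 17 were called, beside 0.492% of all genes (limma, 3 at an unadjusted p under 0.05, all lower, 0 with voom).

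The targets of Nrf2 and Bach1 mostly fell with LPS and rose with G-CDs where they were called. Of 32 tested, 4 rose and 13 fell with LPS (median log2 -0.33), beside 15.8% and 15.6% of all genes. Without LPS replicate 1 these were 2 and 9, under TPM 2 and 19, and with voom 2 and 18. The median read -0.62 under TPM, -0.51 without control replicate 1 and -0.24 without control replicate 3. In the same list 8 rose and 0 fell with G-CDs added (limma, with 23 higher and 0 lower at an unadjusted p under 0.05 and 8 and 0 with voom, median 0.87), 25% called higher beside 0.25% of all genes. Hmox1, the heme oxygenase gene repressed by Bach1, went from 76.4 ± 3.71 to 728 ± 90.1 FPKM with G-CDs added (log2 3.23, adjusted p = 9.6e-05), and Gclm, a subunit of glutamate-cysteine ligase, from 9.28 ± 0.481 to 41 ± 3.79 (2.03, adjusted p = 9.6e-05). How many of all genes had an unadjusted p under 0.05 was not counted, so such counts in any list have no background here. The count called with G-CDs added was 5 without LPS replicate 1, LPS replicate 2 or LPS+G-CDs replicate 2 and 13 without LPS+G-CDs replicate 1. The mRNAs of Nfe2l2, Keap1, Bach1 and the small Mafs were not called in this comparison.

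Proteasome subunits, which are targets of Nrf1 and in part of Nrf2, were called higher in 7 of 32 with LPS (21.9% beside 15.8% of all genes), in 0 with G-CDs added (beside 0.25%, limma, 10 at an unadjusted p under 0.05, 0 with voom) and in 17 for LPS+G-CDs against control (53.1% beside 12.8%), with 0 lower in each, also at an unadjusted p under 0.05 and with voom. Their median changes were 0.22, 0.47 and 0.74, and under TPM scaling these read -0.051, 0.3 and 0.31. The median with G-CDs added was 0.25 when replicate 3 of LPS+G-CDs was dropped and 0.66 when its replicate 1 was dropped. Against control the same fits gave 0.5 and 0.99. Psmd11, a lid subunit, read 26.1 ± 0.756, 43.4 ± 0.64 and 60.2 ± 5.49 FPKM in the 3 groups. The count against control was 8 under TPM scaling, 11 with voom, 8 without control replicate 2, 10 without any 1 of the LPS libraries, and 28, 7 and 11 without LPS+G-CDs replicate 1, 2 and 3. With LPS it was 3 under TPM, with 1 subunit called lower, 3 with voom, 3 without control replicate 2 or any 1 of the LPS libraries, and 4 without control replicate 1 or LPS+G-CDs replicate 2. Reads shared with pseudogene copies of these subunits were not measured.

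**Figure D4:**
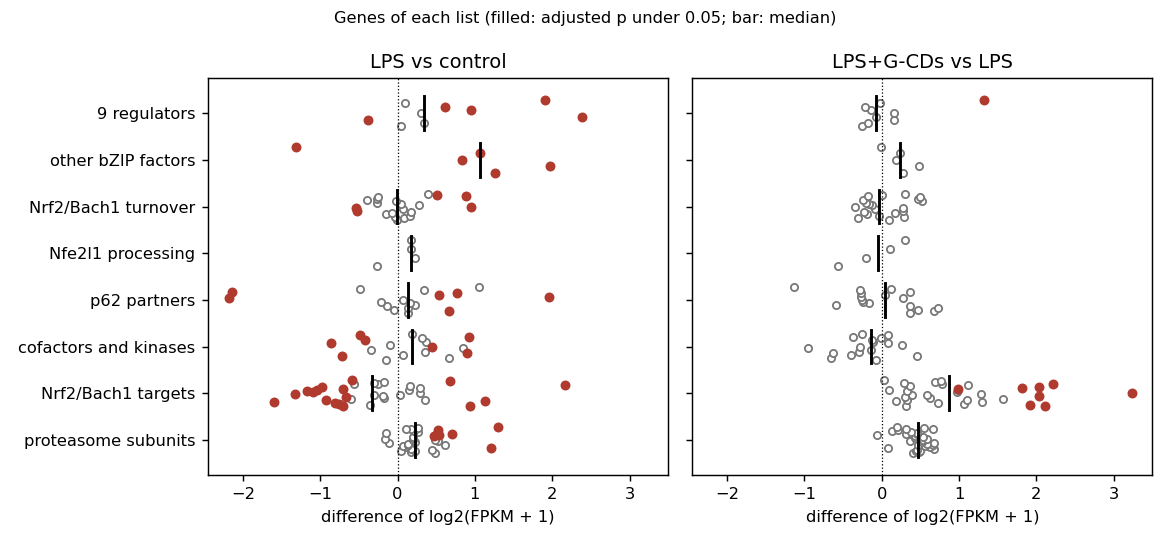
Each point is a tested gene of a pathway list, at its difference of log2(FPKM + 1) with LPS against control (left) and LPS+G-CDs against LPS (right), filled where the adjusted p was under 0.05 (limma), with a black bar at the list's median. The target list has 4 filled points above 0 and 13 below with LPS (median -0.33), and 8 above and 0 below with G-CDs added (median 0.87).

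The genes whose log2 profiles over the 9 libraries came closest to each member were also found, by the root mean square difference after centering. Those nearest to Sqstm1 were Slc7a11, the cystine transporter gene, at 0.38 and Igtp, an interferon-induced GTPase gene, at 0.384, beside a SD of 1.41 for Sqstm1 itself. Maff lay nearest to Hao1 (0.0984) and Tor3a (0.0985, own SD 1.18), Mafk to Map2k1 (0.0562) and Arap1 (0.0768, own SD 0.485), and Nfe2l1 to Ctif (0.045) and Ppp4r1 (0.0563, own SD 0.317). Keap1 lay nearest to Sirt3 (0.0528) and Sclt1 (0.0572, own SD 0.174), and Cul3 to Stt3a (0.0338) and Glyr1 (0.0372, own SD 0.178). The nearest to Nfe2l2 were Ndc1 and Brcc3, to Mafg Aars and Ppm1a, and to Bach1 Rnf123 and Cdc42bpg, with differences of 0.0692 to 0.102 beside own SDs of 0.21, 0.279 and 0.385.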

How the data were processed

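RNA-seq of poly-A mRNA was run on an Illumina NovaSeq instrument. The authors deposited FPKM per gene and library with gene coordinates and lengths, on GRCm38 per their processing notes. The aligner, the counter and the strand setting are not given in the sources used here. Coordinates equaled GENCODE M21 for 53462 of 54409 genes and for 9 of 9 members. FPKM times gene length came out as whole reads, within 0.05 reads, in 100.0% of values, which gave the depth.

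The filter kept 11585 genes (FPKM 1 or more in 3 or more of the 9 libraries), which were fitted as log2(FPKM + 1) with limma 3.58.1 in R 4.3.3 (lmFit, eBayes with trend, 1 model of 3 groups, two-sided). Ratios within libraries were compared by exact permutation tests. Named genes were all 9 members, up to 3 called per direction, list and comparison, Hmox1, Gclm, the 2 nearest profiles and overlapping genes; values of Jdp2 and Gabarapl1 where not called were added after they were seen. Promoter motifs and shared 50-base words were searched with Python 3.11.15 and pandas 2.3.3. The fit was tested on simulated data. Groups follow the titles. The result of 1 listed gene is not reported here. The members and lists were chosen with earlier results of these data known, and the design follows the study where it states one.

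Control and LPS libraries with the same replicate number deviated together from their group means (r of 0.103, 0.137 and 0.113, each over 0.1). By this rule the numbers would pair those libraries, although the labels do not say what they mean. Same-numbered LPS and LPS+G-CDs libraries gave r of 0.095, 0.0801 and 0.143. Between control and LPS+G-CDs, the same numbers gave 0.28, 0.0575 and 0.653. Control replicate 2 and LPS+G-CDs replicate 1, with different numbers, reached 0.504. The printed calls and permutation tests do not use the pairing. A fit with the replicate block is among the alternatives. The others were a pseudocount of 0.1, no filter or an FPKM of 5, scaling to TPM, by median of ratios or by quantiles, only the 6 libraries compared, no trend, voom on recovered reads and each library left out. Removal of the gene-length trend was added after seeing the data.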

Additional observations from a re-analysis of the deposited data

How the results depend on the processing

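Each change was recomputed under 20 alternatives. Of 540 changes of single members, 492 kept their direction and side of the threshold, 13 lost the call, 14 gained it and 21 reversed. Maff and Sqstm1 (LPS and LPS+G-CDs against control) and Mafk (LPS against control) kept their calls under all 20. Members called ranged from 3 to 6 with single libraries left out for LPS against control, from 0 to 1 for LPS+G-CDs against LPS and from 3 to 4 for LPS+G-CDs against control. In the last, 5 were called with the gene-length trend removed, an alternative chosen after seeing the data. All genes called for LPS+G-CDs against LPS numbered 57, and 25 with a pseudocount of 0.1, 27 with TPM, 25 with the 6 libraries alone, 87 with the length trend removed and 11 to 256 with single libraries left out. For LPS+G-CDs against control they numbered 2927, 1789 with the 6 libraries alone and 1914 to 3245 with single libraries left out, and for LPS against control 3630 and 2478 to 4289. Higher calls were 50.3% of calls with LPS as deposited but 24.7% under TPM, 27% with voom and 40.9% with quantile scaling, and 50.8%, 19.1%, 28.3% and 42.6% for LPS+G-CDs against control.

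Reversed values were as follows. Under TPM, LPS against control gave -0.16 for Nfe2l2 and -0.19 for Bach1, LPS+G-CDs against LPS gave -0.0042 for Mafg, and LPS+G-CDs against control gave -0.35 for Nfe2l2, -0.015 for Nfe2l1 and -0.26 for Cul3. Quantile scaling gave Nfe2l2 -0.038 with LPS and -0.097 with LPS+G-CDs against control, and Cul3 -0.0019 in the latter. Voom gave Nfe2l2 -0.16 and Bach1 -0.2 with LPS, and Nfe2l2 -0.17 and Cul3 -0.084 with LPS+G-CDs against control. Without the length trend Bach1 read -0.043 with LPS. With single libraries left out, Nfe2l2 ranged from -0.13 to 0.22 with LPS, from -0.052 to 0.019 with G-CDs added and from -0.15 to 0.2 against control, and Bach1 from -0.22 to 0.27 with LPS and from -0.49 to 0.039 for LPS+G-CDs against control. Relative to the median of all genes, the changes reversed under TPM and voom kept their deposited sign. Nfe2l2 with LPS then read 0.084 as deposited, 0.069 under TPM and 0.08 with voom. For LPS+G-CDs against control, Cul3 read 0.14, 0.11 and 0.14, and Nfe2l2 0.055, 0.024 and 0.053. Under quantile scaling Nfe2l2 stayed reversed in that comparison, at -0.05. The cause of the reversals was not tested. The replicate block brought the call of Cul3 with LPS (6 members called) and changed no other member's call. With single libraries left out the log2 ratio Bach1/Nfe2l2 changed sign, at -0.483 to 0.475 with LPS, -0.699 to 0.0362 with G-CDs added and -0.798 to 0.16 for LPS+G-CDs against control. With 3 libraries a group, the spread between libraries exceeded counting error for most values, and depth mattered most for Maff in control, where counting alone gives a CV of 10.4%.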
